A study of Homo sapiens with 3 samples.

Results

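ETS1 binding sites in the first intron of protein-coding genes, away from any transcription start site (TSS) and outside the strongest enhancers, were described in SCC25 cells. SCC25 is an established cell line of a squamous carcinoma of the human tongue. Its ETS1-bound chromatin was sequenced in 3 ChIP-Seq samples, the C20 antibody having served for 2 of them and 501A for 1, and the labels name no treatment. The deposited result is 1 consensus list of 26970 peaks, made from all 3 samples together, which gives the position of each peak and no signal, score or value per sample. A peak was taken as a first-intron peak when its midpoint lay over 1500 bp from every TSS of GENCODE release 44, inside intron 1 of the canonical transcript of a protein-coding gene, and when the peak overlapped none of the 1900 highest-ranked enhancers that the study called from H3K27Ac. On chromosomes 1 to 22 and X, 931 of the 26958 peaks met these conditions (3.45%, 95% Wilson confidence interval 3.24 to 3.68%). They made up 7.17% of the 12980 peaks over 1500 bp from a TSS. Of all 1662 such peaks in a first intron, 56.0% (53.6 to 58.4%) were outside the ranked enhancers, 579 overlapped a super-enhancer (SE) and 152 overlapped a ranked typical enhancer only. Enhancers past rank 1900 were not considered, so that the 931 peaks can include sites in weaker enhancers. Because the list is pooled, the antibodies could not be compared, the depth of single samples is not in the list, and the intervals given here cover the counting of peaks and bases alone.

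ETS1 belongs to the ETS family of transcription factors, which share a winged helix-turn-helix domain that contacts the core GGAA in DNA. Cells place many regulatory elements in introns, and the first intron is usually the longest of a gene, lies next to the promoter and often carries enhancers that act on the gene itself. ETS factors often bind beside AP-1, the dimers of FOS and JUN proteins that recognise TGACTCA, and the pair mediates transcription downstream of RAS and ERK signalling.

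The sequences below show what the middle of such a peak looks like. They were taken from the plus strand of GRCh37, whose nuclear sequence is that of hg19, and lie within 100 bases of a peak midpoint. Capitals mark only the motif matches for which each sequence was chosen, on either strand, so that further ETS runs can stand in lower case. The first is the earliest-listed first-intron peak with CCGGAA, a high-affinity form of the ETS site. It is also the earliest with AGGAAG beside TGACTCA, and the earliest with AGGAAG beside TGTGGT, the core bound by RUNX factors. This peak, at position 48 of the list, is 723 bp wide and lies 12787 bp from the TSS of CD276, which encodes an immune checkpoint ligand.
CD276, chr15:73989413-73989610: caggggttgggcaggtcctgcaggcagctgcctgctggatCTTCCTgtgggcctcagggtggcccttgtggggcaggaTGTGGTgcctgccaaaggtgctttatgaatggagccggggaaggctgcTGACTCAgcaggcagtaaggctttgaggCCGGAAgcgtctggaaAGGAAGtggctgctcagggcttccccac
The next is the earliest-listed peak with GGAATG, the core of the TEAD site, together with TGACTCA. It lies 14343 bp from the TSS of FBXW8, a substrate receptor of a ubiquitin ligase.
FBXW8, chr12:117363079-117363196: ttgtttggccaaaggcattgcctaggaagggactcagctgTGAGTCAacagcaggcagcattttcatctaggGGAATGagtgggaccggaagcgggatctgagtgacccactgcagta
The last of these is the earliest-listed peak with 2 ETS cores facing each other 4 bases apart, in RCSD1, which encodes a protein that binds actin capping protein.
RCSD1, chr1:167635793-167635884: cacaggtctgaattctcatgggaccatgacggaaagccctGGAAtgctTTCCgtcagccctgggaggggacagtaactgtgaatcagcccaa
Peaks with an ETS letter run and TGACTCA also lay in some of the introns that held most peaks and in some introns of signalling genes described further on. The hosts searched for such a peak were picked by hand. None was found in TGFBR3, SMURF1, TLN2, RARA, VDR, TWIST2, VAV3 or ARHGAP31, and such a peak in EDAR is not printed. One such peak is shown for each of SH3RF3, KCNMA1, KSR1 and SKI, in which the runs are separated by 1, 14, 28 and 23 bases.
SH3RF3, chr2:109830338-109830422: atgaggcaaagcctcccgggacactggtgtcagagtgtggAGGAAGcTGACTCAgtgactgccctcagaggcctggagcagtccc
KCNMA1, chr10:79338848-79338935: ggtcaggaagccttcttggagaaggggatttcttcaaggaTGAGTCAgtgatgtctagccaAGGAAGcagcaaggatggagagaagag
KSR1, chr17:25833755-25833875: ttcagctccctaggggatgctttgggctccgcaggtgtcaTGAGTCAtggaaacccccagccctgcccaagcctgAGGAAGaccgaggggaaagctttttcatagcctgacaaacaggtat
SKI, chr1:2230509-2230600: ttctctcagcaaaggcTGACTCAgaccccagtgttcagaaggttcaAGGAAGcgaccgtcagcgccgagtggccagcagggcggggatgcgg

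First-intron peaks were narrower than the list as a whole and lay along the whole intron. Their median width was 684 bp (95% interval 654 to 719 bp, quartiles 478.5 and 1017.5 bp), compared with 653 bp (634 to 671 bp) at 2169 peaks in later introns outside the ranked enhancers. The 731 first-intron peaks inside ranked enhancers had a median of 776 bp (734 to 814 bp), and all 26958 peaks one of 969 bp. Widths were not tested, since peaks of 1 pooled list are not replicates. In 5 equal stretches of the list, the earliest held 113 first-intron peaks, 2.1% (1.75 to 2.52%) of its peaks, and the latest held 250, 4.64% (4.11 to 5.23%). Their median width fell along the list from 1036 bp in the earliest stretch to 585.5 bp in the latest. Later-intron peaks showed the same, rising from 231 to 587 peaks with the median width falling from 863 to 568 bp, and over all peaks the median width fell from 1235.5 to 698.5 bp. The median position in the list was 16236 for first-intron and 16400 for later-intron peaks. The order of the list carries no stated meaning. The widest of these peaks were 5874 bp in EPPK1, which encodes the cytolinker epiplakin, 4823 bp in RHBDF2, which encodes the inactive rhomboid iRhom2, 4339 bp in TRAF7, 4230 bp in NHERF1, a membrane scaffold, and 4226 bp in ADGRB1, an adhesion receptor. A wide peak can reach a start site even when its midpoint does not, and 4 of the 931 spanned a TSS and 6 came within 500 bp of one. Another 2581 first-intron peaks outside ranked enhancers lay at or below the limit of 1500 bp. At the limit, the nearest peak inside it was 1504 bp from a TSS and the last peak left out was 1491 bp from one.

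The median distance from the midpoint to the host gene's own TSS was 18622 bp (95% interval 17065 to 21177 bp, quartiles 7566.5 and 42623 bp). The nearest to its host TSS was a peak in TOM1, which encodes an endosomal sorting adaptor, at 1528 bp, and the farthest was one in NTM, which encodes the cell adhesion protein neurotrimin, at 517909 bp. The introns that carried them had a median length of 44763 bp (40729 to 49130 bp). Within the intron the median position was 53.0% of the way from its 5′ end (50.2 to 56.2%). Per eligible sequence, meaning bases of intron 1 over 1500 bp from any TSS and outside the ranked enhancers, density ranged from 4.18 to 4.69 peaks per Mb over 5 equal stretches of the intron. The 276 peaks (29.6%, 26.8 to 32.7%) that lay upstream of the start codon had a density of 4.12 per Mb, and the 655 downstream of it one of 4.58 per Mb (ratio 0.900, 95% interval 0.779 to 1.04). The side of the start codon did not separate the densities beyond counting error. Only 14 midpoints fell in an exon of some other transcript, 20 peaks met an exon of a canonical coding transcript with any part of their span, and 56 midpoints (6.02%) lay within the span of a long noncoding RNA. Another peak of the list was within 5 kb of 31.0% of the 931 (28.2 to 34.1%), compared with 23.7% (515 of 2169) of later-intron peaks.

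Whether ETS1 peaks were denser in first than in later introns depended on how genes were weighed. The first introns held 931 peaks in 205 Mb of eligible sequence, 4.54 per Mb, and the later introns held 2169 in 673 Mb, 3.22 per Mb. The ratio of densities was 1.41 (exact conditional binomial interval 1.30 to 1.52). Density fell with distance from the nearest TSS in both classes. Between 1.5 and 5 kb it was 6.07 per Mb in first introns and 4.37 per Mb in later ones, a ratio of 1.39 (1.21 to 1.59). Between 20 and 50 kb it was 3.68 against 2.76 per Mb, a ratio of 1.33 (1.1 to 1.60). Between 50 and 100 kb the values were 1.22 and 1.66 per Mb on 19 and 109 peaks, with a ratio of 0.734 (0.426 to 1.20), and past 100 kb the first introns held 2 peaks.

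**Figure D1:**
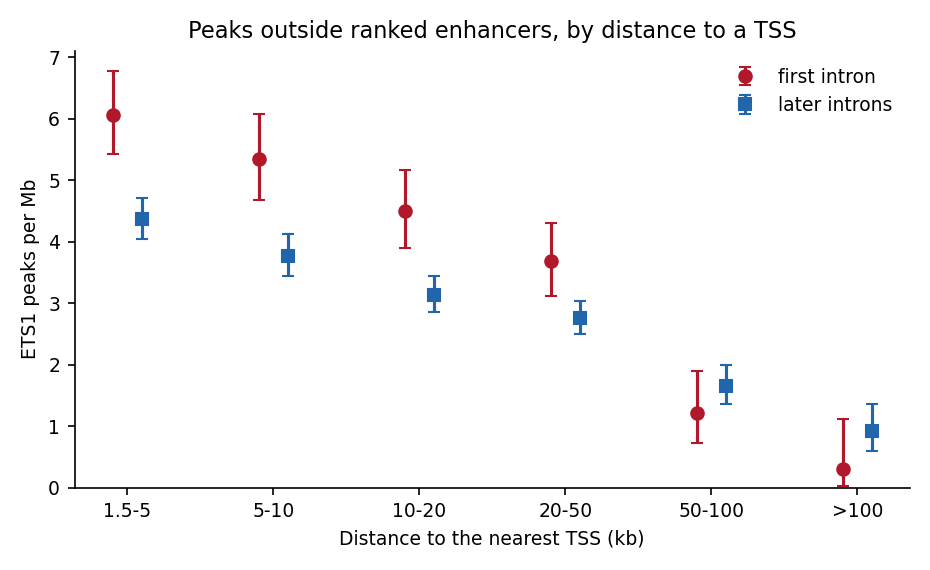
Density of ETS1 peaks outside ranked enhancers (y axis, peaks per Mb of eligible intron) by distance to the nearest TSS (x axis, kb), in first introns (red circles) and later introns (blue squares). Bars are exact 95% Poisson intervals of the counts. First introns stand higher up to 50 kb, at 6.07 against 4.37 per Mb nearest the TSS, and not beyond it.

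The comparison inside genes gave another answer. In the 9582 genes with eligible sequence in both classes, first introns received 876 peaks and later introns 1705. A peak in introns of more than 1 gene counted once in each gene here. The ratio over the summed sequence was 1.39 (1.28 to 1.51). When each gene was its own stratum, the Mantel-Haenszel ratio was 1.03 (95% interval 0.935 to 1.13). Sharing out each gene's peaks by the length of its introns would have put 864 in first introns, close to the 876 counted. The higher pooled density was therefore not seen between the first and later introns of the same genes. Density also differed from gene to gene. In the 880 genes whose eligible sequence was over 75% first intron, density was 5.78 per Mb in first and 8.40 per Mb in later introns. In the 2280 genes with at most 10% in the first intron the values were 2.37 and 2.70 per Mb. In the classes between, at 10 to 25%, 25 to 50% and 50 to 75% first intron, first-intron density was 3.51, 3.81 and 5.37 per Mb and later-intron density 2.86, 3.75 and 4.62 per Mb. The ratios over the 5 classes, from the lowest share to the highest, were 0.878 (0.539 to 1.35), 1.23 (0.990 to 1.51), 1.02 (0.873 to 1.18), 1.16 (0.95 to 1.43) and 0.688 (0.499 to 0.965). Length moved with density too. Genes with at most 20 kb of eligible intron had 8.65 per Mb in first and 5.38 per Mb in later introns, and the 955 genes with over 200 kb had 2.41 and 2.24 per Mb, with a ratio of 1.07 (0.912 to 1.26). First introns of over 100 kb held 2.45 peaks per Mb (2.11 to 2.82), compared with 6.78 per Mb (5.91 to 7.75) in those of 5 to 20 kb. The part of these gene properties in the pooled ratio was not tested.

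Genes with an ETS1 peak at their promoter, within 500 bp of the canonical TSS, had a first-intron density of 5.17 per Mb and a later-intron density of 3.39 per Mb, a ratio of 1.52 (1.35 to 1.71). Genes with no peak there had 4.06 and 3.15 per Mb, a ratio of 1.29 (1.16 to 1.43). Both ratios are over summed sequence, and within-gene ratios were not computed for these 2 classes. Of the 671 genes that held a first-intron peak, 302 (45.0%, 41.3 to 48.8%) also had a promoter peak, against 526 of 1209 genes (43.5%, 40.7 to 46.3%) with later-intron peaks only. The difference was 1.5 percentage points (Newcombe interval -3.17 to 6.19). It was 6.13 points (1.44 to 10.7) when the promoter reached 1500 bp, so that the call depended on the width taken for the promoter. Among all 10704 genes with eligible first-intron sequence the share was 48.4%. The 1209 genes with later-intron peaks only were not required to have such sequence.

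The densities differed between chromosomes, from 11.4 per Mb on chromosome 17 (72 peaks), 10.004 on chromosome 19 and 9.39 on chromosome 20 to 1.92 on chromosome 4, 1.71 on chromosome X and 1.18 on chromosome 18 (6 peaks). On the same 6 chromosomes later introns held 5.08, 8.62, 5.59, 1.14, 0.658 and 2.82 peaks per Mb. Chromosome 18 was thus low in first introns and not correspondingly low in later ones, on few peaks.

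The 931 peaks were shared by 671 of the 10704 genes, 6.27% of them. A single first-intron peak was found in 507 genes, while 164 had 2 or more, 65 had 3 or more and 27 had 4 or more. A later-intron peak was also present in 182 of the 671 hosts (27.1%, 23.9 to 30.6%). SH3RF3, which encodes a scaffold and ubiquitin ligase of JNK signalling, had most, with 8 peaks in 208 kb of eligible sequence. They lay at 41706, 42707, 84662, 109484, 193067, 195793, 203308 and 206366 bp from its TSS, so that 4 of them stood past 88.3% of the way along the intron and the nearest pair was 1001 bp apart. The gene also had a promoter peak. Its first-intron peaks were 426 to 1330 bp wide, and AGGAAG was present in the central 200 bp of 4 of the 8.

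KCNMA1, which encodes the pore of the BK calcium-activated potassium channel, had 7 peaks in 167 kb, from 34018 to 231753 bp from its TSS, and none at its promoter. EDAR, the receptor for ectodysplasin in the development of hair follicles, teeth and sweat glands, has its TSS at 109605676 on chromosome 2, not far from that of SH3RF3 at 109745661. It had 5 peaks, at 8980, 17065, 30144, 31853 and 55363 bp, and none at its promoter. In TOX2, which encodes an HMG-box factor, 5 peaks lay at 13798, 22109, 24206, 28065 and 40383 bp, and the central windows of those at 24206 and 28065 bp held both AGGAAG and TGACTCA. KSR1, the scaffold that brings RAF, MEK and ERK together, had 5 at 38394, 41508, 50315, 62745 and 88392 bp, beside a promoter peak. These introns thus held strings of separate peaks. That none of the peaks overlapped a ranked enhancer follows from the way first-intron peaks were chosen. HIVEP3 (a zinc finger factor), GAS7 (a protein of actin remodelling) and SORCS2 (a sorting receptor) also had 5 each, and 19 genes had 4 each. Of these 19, the 2 with the highest density of peaks per eligible sequence were CAMSAP1, which binds microtubule minus ends, and the endosomal kinesin KIF16B. In CAMSAP1 all 4 lay in 21.3 kb of eligible sequence. Of these 10 genes only SH3RF3, KSR1 and KIF16B had a promoter peak.

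**Figure D2:**
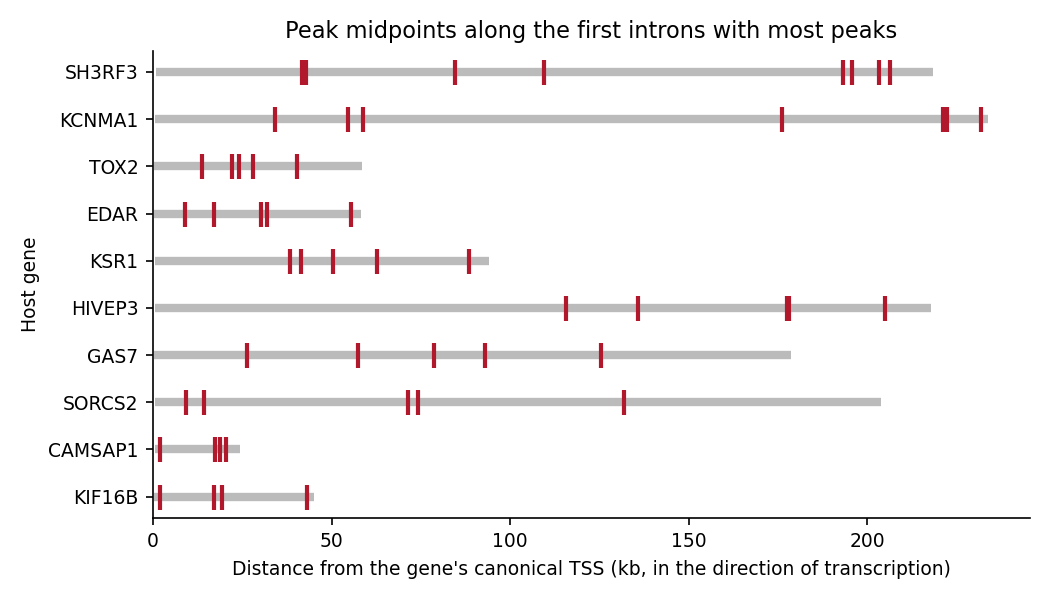
Midpoints of first-intron peaks (red ticks) in the 8 genes with 5 or more and in CAMSAP1 and KIF16B, the densest of the 19 genes with 4, against the distance from the canonical TSS in the direction of transcription (x axis, kb). Grey bars are the first introns, and each row is a gene. The 8 peaks of SH3RF3 run from 41706 to 206366 bp, while those of TOX2 lie within 13798 to 40383 bp.

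The sequence in the central 200 bp was compared with a window of the same size 5000 bp away, toward higher coordinates, which overlapped no peak for 877 of the 931. The distant windows were not required to lie in the intron, away from a TSS or outside the ranked enhancers. GC content was 54.5% at the peaks (median, 54.0 to 55.0%) and 48.0% (47.0 to 48.5%) in the other windows, and was also 54.5% at later-intron peaks. The core GGAA was in 93.1% of peak windows (91.3 to 94.6%) and in 80.7% (78.0 to 83.2%) of the distant ones, with a mean of 2.59 ± 1.58 and 1.98 ± 1.59 matches per window (SD over windows). AGGAAG was present in 39.5% of peaks and 22.7% of their paired windows. In 260 pairs the peak alone held it and in 113 the distant window alone (odds ratio 2.30, p = 1.86e-14 in a two-sided exact McNemar test, and 9.29e-14 after Benjamini-Hochberg adjustment over 10 motifs). CCGGAA was rarer but more unequal, at 6.61% and 1.94% (odds ratio 3.56, exact test, adjusted p = 5.09e-06). CGGAAG was at 6.04% and 3.42% (adjusted p = 0.0214, same exact test), and AGGAAA, at 25.4% and 21.8%, did not pass (adjusted p = 0.110, same exact test).

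TGACTCA, the AP-1 site, stood out most clearly of the 10 motifs, in 20.5% of peaks and 2.85% of paired windows (174 against 19 pairs, odds ratio 9.16, two-sided exact McNemar test, adjusted p = 1.57e-31). GGAATG was in 15.2% and 9.01% (odds ratio 1.76, adjusted p = 0.000280, same exact test), but against windows 5000 bp upstream the difference was 2.70 points and did not pass (adjusted p = 0.136, same exact test). TGTGGT was in 17.8% and 13.5% (odds ratio 1.37, adjusted p = 0.0252, same exact test), and GGGCGG, the GC box of SP and KLF factors, in 12.5% and 6.39% (odds ratio 2.12, adjusted p = 3.08e-05, same exact test). TGTTTAC, the forkhead site, was in 3.42% and 2.62% (adjusted p = 0.401, same exact test), and AACCNGTT, the grainyhead site, in 1.25% and 0.684% (adjusted p = 0.369, same exact test). Some of these differences did not hold in pairs of like base composition, a setting chosen after seeing the data. In the 288 pairs whose GC content differed by at most 5 points, AGGAAG was still 17.4 points and TGACTCA 17.0 points more frequent at peaks, and GGAATG 7.64 points (adjusted p = 2.36e-05, 5.91e-11 and 0.0426, same exact test). CCGGAA was 2.43 points (adjusted p = 0.315) and TGTGGT 0.694 points more frequent (adjusted p = 1.0), CGGAAG had a difference of 0 points (adjusted p = 1.0), and for GGGCGG the difference turned to -3.47 points (adjusted p = 0.315), all by the same exact test.

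**Figure D3:**
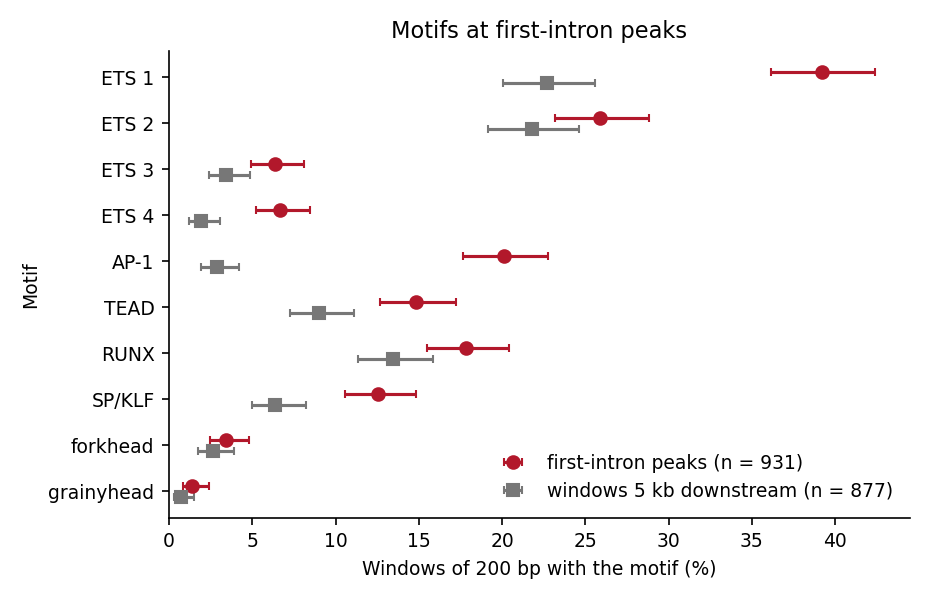
Share of 200 bp windows with each motif on either strand (x axis, percent) at the 931 first-intron peaks (red circles) and in the 877 windows 5000 bp downstream (grey squares), with 95% Wilson intervals. ETS 1 is AGGAAG and ETS 2 is AGGAAA, while CGGAAG stands as ETS 3 and CCGGAA as ETS 4, and the widest gap is that of AP-1, at 20.1% and 2.85%.

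The motifs did not tell first introns from later ones. AGGAAG was in 39.2% of first-intron and 37.4% of later-intron peaks (difference 1.81 points, Newcombe interval -1.89 to 5.57), and TGACTCA in 20.1% and 21.0% (-0.938 points, -3.96 to 2.23). For all 10 motifs the interval of the difference from later introns included 0. A difference of up to 5.57 points is within the bounds for AGGAAG. Compared with first-intron peaks inside ranked enhancers, TGTTTAC alone had an interval without 0, at 3.44% against 1.64% (1.80 points, 0.234 to 3.34), among 10 intervals not adjusted for their number. In the whole list, peaks near TSSs included, AGGAAG was in 30.6%, CCGGAA in 11.9%, GGGCGG in 30.6% and TGACTCA in 12.2% of windows.

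**Figure D4:**
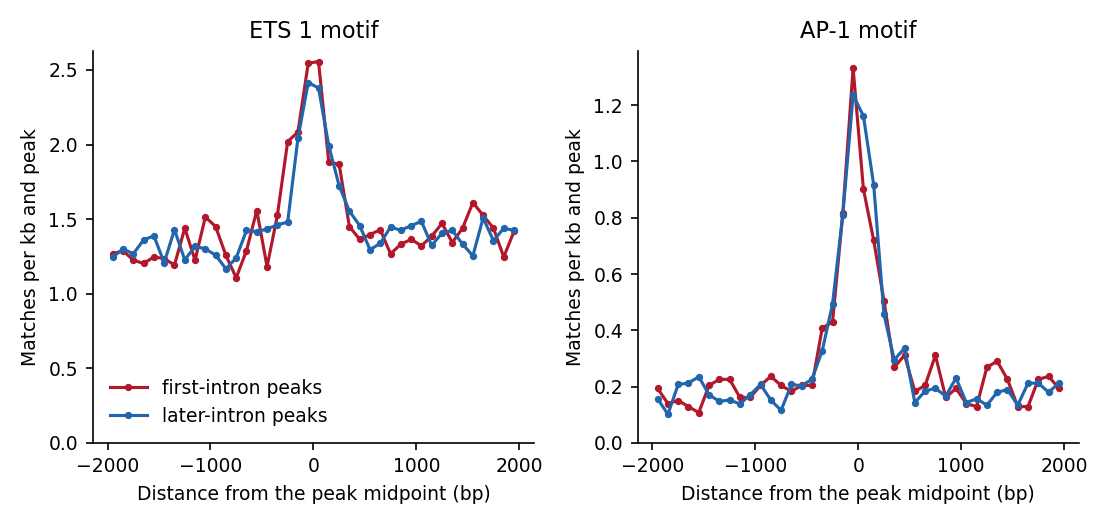
Matches of AGGAAG (left, ETS 1) and TGACTCA (right, AP-1) per kb and peak (y axis) in bins of 100 bp by distance from the peak midpoint (x axis, bp), at first-intron peaks (red) and later-intron peaks (blue). Both motifs rise to the midpoint, AGGAAG from 1.40 per kb in the bin centred 550 bp to the right to 2.56 in the bin centred at 50 bp.

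Of the 931 windows, 60.7% held at least 1 of the 4 ETS runs (57.5 to 63.8%), against 41.8% (38.6 to 45.1%) of the distant windows. An ETS run and TGACTCA were present together in 124 (13.3%, 11.3 to 15.7%), against 12 of 877 (1.37%, 0.784 to 2.38%). TGACTCA without an ETS run was found in 6.77% of peaks, and neither in 32.5% (29.6 to 35.6%). An ETS run was present in 66.3% (59.3 to 72.7%) of the 187 peaks with TGACTCA and in 59.3% (55.7 to 62.7%) of the 744 without it, so that the intervals overlapped. Among the 187, GGAA lay within 20 bases of TGACTCA in 92 (49.2%, 42.1 to 56.3%), and in 16 of the 25 distant windows with TGACTCA (64.0%, 44.5 to 79.8%). These intervals overlapped as well.

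One arrangement was more frequent than the other spacings of GGAA and TGACTCA. The core GGAA followed by 1 base and then TGACTCA or its reverse complement was at 9 peaks and in 18 of 2169 later-intron peaks. It was in 0 of 877 distant windows, which allows a share of up to 0.342% there. TGACTCA itself was in 187 first-intron peaks but in only 25 of these distant windows. The 0 therefore cannot separate a preferred spacing from the scarcity of TGACTCA in the distant windows. Over the 42 orders and distances counted the median was 2.5 peaks. The distance was singled out after its values were seen and was not tested. The 9 sites were in AKAP13, a kinase anchor (GGAAGTGACTCA, chr15:85956860-85956871), KCNK13 (GGAAGTGACTCA, chr14:90607494-90607505), EPHB2, an ephrin receptor (GGAAATGACTCA, chr1:23039295-23039306), C12orf56 (GGAACTGACTCA, chr12:64779411-64779422), OTOP1 (TGAGTCACTTCC, chr4:4218538-4218549), FOXK1 (TGAGTCACTTCC, chr7:4778552-4778563), TNRC6B (TGAGTCAGTTCC, chr22:40635263-40635274), CDH13, a cadherin without a cytoplasmic domain (TGAGTCAGTTCC, chr16:82734659-82734670), and DGKH (TGACTCACTTCC, chr13:42677613-42677624). Cores facing each other 4 bases apart, as in RCSD1 above, were in 5 peaks and 10 distant windows.

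Every 6-mer, counted together with its reverse complement, was then compared in the same pairs. At an adjusted p of 0.05 in the exact McNemar test 319 (15.3%) were more frequent at the peaks and 381 (18.3%) less frequent. Of the 48 6-mers that contain GGAA, 18 were more frequent and none was less frequent. The 18 became 6 in the first 13485 peaks of the list and 3 in pairs of like GC content. CAGGAA led these by its p-value (39.9% against 18.6%, odds ratio 2.89, exact McNemar test, adjusted p = 1.1e-19), and ACTTCC, which is GGAAGT on the other strand, was at 21.2% and 9.92% (odds ratio 2.55, adjusted p = 1.83e-09, same exact test). GAGTCA, within the AP-1 site, was at 28.4% and 9.24% (odds ratio 4.0, adjusted p = 3.00e-22, same exact test). By odds ratio the first 5 were CCGCGG (7.33), TGCGCA (6.50), CCCGCG (6.0), ACCGGA (5.67) and CGCGGC (5.60), of which ACCGGA overlaps the start of the ETS site. Those 5 were rare, in 1.48 to 3.88% of peaks. The 5 with the lowest odds ratio were TATATA (0.0577), ATATAT (0.0727), GATATA (0.0889), ATATAA (0.0980) and GTTATA (0.130). Of the 604 6-mers with CG, 110 were among those more frequent. In the 288 pairs of like GC content the counts were 13 and 42 in place of 319 and 381. The part of base composition and of the smaller number of pairs in this fall was not tested. The distant windows were not screened for repeats, while the peaks came from reads mapped to a single locus. The part of repeats in the 6-mers less frequent at peaks was not tested either.

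Genes of 16 lists, chosen with earlier results of these data known, were read against the 6.27% of genes that held a first-intron peak and the density of 4.44 peaks per Mb over their eligible first introns. Of the TGF-beta pathway, 5 of 18 genes were hosts (27.8%, 12.5 to 50.9%), and they held 9 peaks, 13.9 per Mb (exact Poisson interval 6.35 to 26.4). The ligand BMP2 had 1 in an intron of 1244 bp. Among receptors, the co-receptor TGFBR3 had 2, at 13323 and 21892 bp from its TSS, and the activin receptor ACVR1B had 1. The ubiquitin ligase SMURF1, which marks receptors and SMADs for turnover, had 1 at 1847 bp. SKI, the co-repressor that holds SMAD complexes inactive, had 4, at 6370, 27445, 62465 and 70851 bp, of which those at 27445 and 62465 bp were 2327 and 1948 bp wide and the farthest held the AP-1 and ETS letters printed above. The density of this list was above that of all genes by more than its counting interval, and 4 of its 9 peaks were in SKI. Without SKI it was 8.59 per Mb (2.79 to 20.1), whose interval includes 4.44 per Mb. The median eligible intron of the list was 20.6 kb, against 6.33 kb over all genes.

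Focal adhesion and actin genes had 3 hosts of 17 (17.6%, 6.19 to 41.0%), with 6 peaks (8.67 per Mb, 3.18 to 18.9), of which TLN2, a talin that links integrins to actin, held 4, and the parvin gene PARVA and the tensin gene TNS1 held 1 each. Nuclear receptors had 5 hosts of 13 (38.5%, 17.7 to 64.5%) with 7 peaks (8.04 per Mb, 3.23 to 16.6). These were RARA, the retinoic acid receptor, with 2 at 2571 and 5449 bp, RORA with 2 in 527 kb of eligible sequence, and THRB, NR4A3 and the vitamin D receptor gene VDR with 1 each. The interval of the host share included 6.27% for focal adhesion and actin genes and lay above it for nuclear receptors. The intervals of both densities included 4.44 per Mb. Over all genes the host share rose with first-intron length, from 0.697% up to 5 kb to 18.7% at 50 to 100 kb. Median eligible introns were 26.5 kb for focal adhesion and actin genes and 13.8 kb for nuclear receptors, against 6.33 kb over all genes. The part of intron length in the host shares was not tested.

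In the list from EGFR to ERK only KSR1 of 20 genes was a host (5.0%), and its 5 peaks alone gave the list 4.80 per Mb (1.56 to 11.2). Chromatin regulators had 4 hosts of 25 (16%, 6.40 to 34.7%), DOT1L, CHD7, HDAC7 and TET2, with 1 peak each. The interval of this share lay just above 6.27%, while that of the density, 7.23 per Mb (1.97 to 18.5), included 4.44 per Mb. The median eligible intron of this list was 18.2 kb, and the part of intron length in its share was not tested. In the Hippo and YAP list the kinases LATS2 and STK3 were hosts, of 13 genes. The WNT list (LRP5, of 12), the ETS family (SPDEF, an epithelial ETS factor, of 13), the AP-1 family (MAFK, of 12), the NF-kappaB pathway (TRAF3, of 9), EMT factors (TWIST2, of 5) and squamous lineage factors (FOXN1, of 4) had 1 host each with 1 peak. The host shares of these 6 lists each rest on 1 gene. MAFK, the host in the AP-1 list, encodes a small MAF protein and is neither a FOS nor a JUN gene. None of 7 integrin and laminin genes with eligible sequence was a host, which allows a share of up to 42.9%, and none of 17 lymphocyte genes was (up to 17.6%). None of 23 synaptic genes was a host (up to 13.0%), although their first introns gave 2.98 Mb, a density of 0 to 1.24 per Mb. The median eligible intron of this list was 69.3 kb. Over all genes, first introns of over 100 kb held 2.45 peaks per Mb (2.11 to 2.82), below the 4.44 per Mb of all lengths. The part of intron length in the density of synaptic genes was not tested. Only 4.35% of the synaptic genes had a promoter peak, and 5 of the 23 had a later-intron peak. No cytosolic ribosomal protein gene had eligible first-intron sequence.

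**Figure D5:**
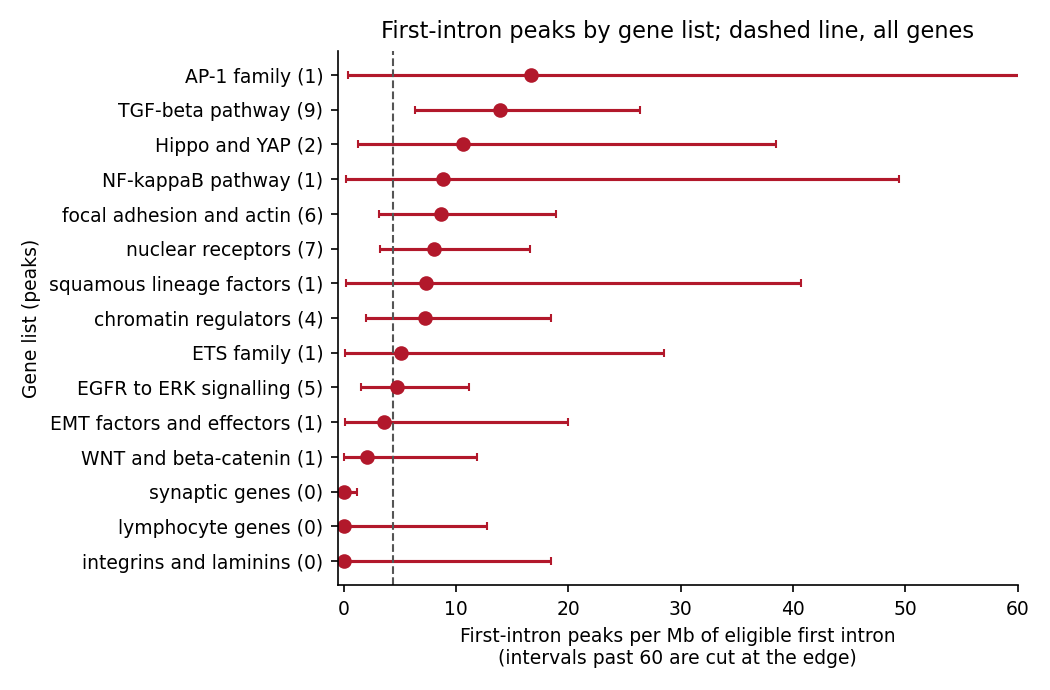
First-intron ETS1 peaks per Mb of eligible first intron (x axis) in 15 gene lists, with the number of peaks after each name and exact 95% Poisson intervals. The dashed line is the 4.44 per Mb of all genes, above which the whole interval lies for the TGF-beta pathway, at 13.9 per Mb, and below which it lies for synaptic genes, at 0. Without SKI the interval of the TGF-beta pathway was 2.79 to 20.1 per Mb and included 4.44. The 15 intervals were not adjusted for their number, and the lists were not matched for intron length.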

How the data were processed

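The deposited file holds, per the labels, 1 list of peak positions from an IDR procedure run on all 3 ChIP samples. Its 3 columns are chromosome, start and end, counted from 0, and have no unit of signal. The authors mapped reads to hg19 with Bowtie 1.1.1, keeping reads with a single locus, merged files with SAMtools 1.3, and used MACS2 with a merged input as control. A peak lost to low depth in a sample cannot be recognised. No column belonged to a single sample.

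Members were found by peak midpoint with GENCODE release 44 on GRCh37 and the study's ranked enhancers (ranks 1 to 965 are SEs). Eligible sequence was masked by the same distance from a TSS and by the bases of the ranked enhancers. Bases just beside an enhancer stayed eligible, although a peak centred there could overlap the enhancer and be left out. With only the midpoint compared with enhancers, 933 peaks were counted in place of 931. A peak in introns of more than 1 gene was counted once in the overall counts and in densities by distance and chromosome. Peaks per gene, the within-gene comparison and densities by promoter class, gene length or intron length took it once in each of its genes. The 4.44 per Mb of all genes and the densities by side of the start codon or stretch of the intron took it once. Their eligible sequence was summed gene by gene, so that bases in the first introns of more than 1 gene entered more than once. In all, 9 peaks lay in intron 1 of more than 1 gene. Shares have 95% Wilson intervals, differences Newcombe intervals, density ratios exact conditional binomial intervals, medians order-statistic intervals, and a share of 0 an upper limit of 3 counts. Motifs were read on both strands in 200 bp windows and tested with two-sided exact McNemar tests, with Benjamini-Hochberg adjustment. The code was tested on simulated data. One more gene list is not reported here. Members and lists were chosen with earlier results of these data known. Named were the 10 genes with most members (ties by density of members per eligible sequence, then symbol), the 5 widest members, those nearest to and farthest from their TSS, at most 4 hosts per list by number of members and then list order (further hosts are named for completeness), the 10 motifs, the earliest-listed member off chromosome 8 for each printed pair of motifs, and the 5 6-mers with the largest and smallest odds ratio. The spacing sites and some 6-mers with GGAA were named after their values were seen. The hosts searched for an ETS run with TGACTCA were picked by hand. The scripts ran under Python 3.11.15 and used scipy 1.17.1, numpy 2.4.6, matplotlib 3.10.9 and pandas 2.3.3.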

Additional observations from a re-analysis of the deposited data

How the results depend on the processing

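No paired analysis was possible because the list is pooled over the samples, and for the same reason no replicate could be left out. The number of first-intron peaks was 609 at over 5000 bp from a TSS, 1533 with intron 1 of any coding transcript and 356 in the first 13485 peaks of the list, and within 1.5 times 931 in the other settings. The density ratio of first to later introns was 1.03 within genes, where its interval included 1, and between 1.29 and 1.52 in the other settings. The 6-mers more frequent at peaks numbered 500 in 600 bp windows, 115 in the first 13485 peaks of the list and 13 in pairs of like GC content, and those less frequent 141 in those first peaks and 42 in pairs of like GC content. The peak width had a median of 812.5 bp in the first 13485 peaks of the list. The share of hosts with a promoter peak was 59.3% within 1500 bp and 57.4% with any TSS of the gene. The difference of the hosts from genes with later-intron peaks only was 6.13 points within 1500 bp and -0.0258 points with any TSS, where its direction turned. GGGCGG turned to -3.47 points in pairs of like GC content. AGGAAG and TGACTCA were more frequent at peaks, with an adjusted p under 0.05, in each setting. In the same exact McNemar test other motifs depended on it, and GGAATG did not pass against upstream windows (2.70 points, adjusted p = 0.136). In the first 13485 peaks the exact test was not passed by CGGAAG (adjusted p = 0.196), by CCGGAA (0.0603), by TGTGGT (0.196) or by GGGCGG (0.116). TGTTTAC passed against upstream windows (1.80 points, adjusted p = 0.0323) and AACCNGTT in 600 bp windows (2.43 points, adjusted p = 0.0159), all by the exact McNemar test. Where a value moved, the cause was not tested, beyond the fewer peaks or pairs that a setting leaves. The settings of GC content and of peak spans near a TSS were chosen after seeing the data.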
